A study of Mus musculus with 12 samples.

Results

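Tight junctions seal the gap between neighboring epithelial cells, and 10 genes of this structure were followed here across the RNA-seq libraries of mice that lack an intestinal enhancer of *Ctnnb1*, the gene of β-catenin. They are 8 claudin genes (*Cldn1*, *Cldn2*, *Cldn3*, *Cldn4*, *Cldn7*, *Cldn8*, *Cldn15* and *Cldn23*), *Ocln*, the gene of occludin, and *Tjp1*, the gene of the scaffold protein ZO-1. They were taken by gene symbol from the 54532 genes of each expression table, and all 10 were present in both tables. In small intestinal crypts, where the stem cells of the gut lie beside Paneth cells, knockout mice (*Ctnnb1*Δi.enh) were set against wild-type mice. In colon tumors, *Apc*Min/+ mice that also lacked the enhancer (*Ctnnb1*Δi.enh;*Apc*Min/+) were set against *Apc*Min/+ mice with an intact enhancer. All mice were adult, untreated and of C57BL/6 background, and each group had 3 libraries. *Ctnnb1*Δi.enh mice carry a homozygous germline deletion of the enhancer, so that it is missing from every cell of the sample and not from the epithelium alone, and both tumor groups carry the *Apc*Min allele, a nonsense mutation of *Apc*. The labels number the libraries without naming the animals, so p-values measure the spread between libraries.

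Expression was given as FPKM, the number of fragments on a gene corrected for gene length and sequencing depth, and the tables of crypts and tumors were normalized separately. Whole fragments could be recovered from the values, and between 14457896 and 16156712 fragments lay on genes in each of the 12 libraries. In the targeted gene *Ctnnb1*, FPKM was 121, 134 and 123 in wild-type and 102, 104 and 105 in knockout crypts. In tumors it was 299, 363 and 358 in *Apc*Min/+ and 279, 248 and 250.2 in knockout libraries. The knockout libraries were thus below all controls of their tissue, with log2 fold changes of -0.28 (unadjusted p = 0.0510, adjusted p = 0.849 from limma) and -0.39 (unadjusted p = 0.0204, adjusted p = 0.303 from limma). The deletion lies upstream of the transcript, so no missing exon could be checked. The β-catenin target *Axin2* was also below the controls in all 3 knockout libraries of each tissue, with 20.6, 19.8 and 23.2 in wild-type and 17.7, 18.3 and 13.6 in knockout crypts, and 96.5, 104 and 106 in *Apc*Min/+ and 77.8, 80.8 and 85.3 in knockout tumors.

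Claudins are a family of membrane proteins whose extracellular loops meet those of the adjacent cell and set which ions and how much water pass between cells. Claudin 2 and claudin 15 form channels for cations and are the classical pore-forming claudins of the intestine, while claudins such as claudin 1, claudin 3, claudin 4 and claudin 8 are known for tightening the barrier. Occludin is a further membrane protein of the junction, and ZO-1 binds the tails of claudins and occludin and links them to actin.

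Several libraries stood apart, which bears on the comparisons of genotypes. In crypts, a list of 9 stomach genes summed to an FPKM of 207 and 122 in wild-type replicates 1 and 2, against 15.0 in wild-type replicate 3 and 12.4, 19.7 and 10.1 in the knockout libraries. Its most abundant gene was *Tff2*, and *Gkn1* and *Gkn2*, which encode gastrokines of the stomach lining, were listed at 0 in the other 4 libraries. *Atp4a* of this list went the other way at low values, with 0.189, 0.174 and 0.0848 in wild-type and 0.555, 0.492 and 0.208 in knockout crypts. *Cldn18*, a claudin of the stomach lining, was seen in wild-type replicates 1 and 2 alone. *Cldn18*, singled out after its values were seen like *Gkn1* and *Gkn2*, had 17 and 16 fragments in wild-type replicates 1 and 2 (FPKM 0.246 and 0.235) and 0 in each of the other 4 libraries. Log2 fold changes of the tested members in crypts are therefore also given without wild-type replicates 1 and 2, which leaves 1 wild-type library against 3. In that fit the single wild-type library is assumed to vary like the knockout libraries.

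In tumors the libraries differed in genes of position along the gut. *Hoxd13*, a homeobox gene of the distal gut, had an FPKM of 0.0746, 65.7 and 63.0 in *Apc*Min/+ and 2.85, 0.176 and 42.5 in knockout tumors. *Hoxd13* was singled out after its values were seen. The list of 4 colon genes that it belongs to had *Hoxb13* as its most abundant member and summed to 148, 222 and 231 in *Apc*Min/+ and 199, 297 and 294 in knockout tumors, with 3 genes higher and 1 lower in the knockout. *Car1*, which the colonocyte list below also holds, was its 1 gene with an unadjusted p under 0.05, at 67.4, 46.7 and 65.9 in *Apc*Min/+ and 78.3, 201 and 114 in knockout tumors. Of all genes tested in tumors, 8.46% were higher and 6.0% lower with such a p. In crypts *Hoxb13* and *Hoxd13* were listed at 0 in all 6 libraries, and the summed FPKM of the list was between 2.24 and 3.42, with 1 gene tested and lower in the knockout. The 4 genes of small intestinal position varied within wild-type crypts, with sums of 185, 1085 and 2705 against 734, 667 and 731 in knockout crypts, led by *Fabp6*. Of these, 2 were higher and 2 lower in knockout crypts, none with an unadjusted p under 0.05 in limma. *Gata4* and *Onecut2* were the higher ones, with log2 fold changes of 0.40 and 0.23. *Slc10a2* and *Fabp6* were the lower ones, at -0.94 and -0.12, so that the list did not differ in 1 direction.

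The claudin make-up of the tissues was described first. In wild-type crypts *Cldn7* was the most abundant member, with a mean FPKM of 387 ± 29.6 (SD, n = 3), followed by *Cldn3* (239.5 ± 11.1) and *Cldn15* (174 ± 20.3), and these 3 did not overlap. *Cldn2* came next at 50.5 ± 15.7. *Ocln* (26 ± 1.44), *Cldn4* (21.2 ± 8.77), *Tjp1* (14.8 ± 1.28) and *Cldn23* (11.4 ± 0.434) followed, and the range of *Cldn4* spanned those of *Ocln* and *Tjp1*. *Cldn8* (0.528 ± 0.325) and *Cldn1* (0.120 ± 0.0474) were near the limit of detection, with 8 to 32 and 1 to 12 fragments per library across the 6 crypt libraries.

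In *Apc*Min/+ tumors the order was a different one. *Cldn4* led at 413 ± 28.9 (SD, n = 3), above *Cldn3* (296 ± 15.3), *Cldn7* (241 ± 11.9) and *Cldn2* (74.0 ± 19.1). *Tjp1* (29.9 ± 0.759) and *Cldn23* (25.8 ± 1.05) came next, and *Ocln* (22.5 ± 3.05) overlapped with *Cldn23*. *Cldn8* (9.21 ± 1.56) and *Cldn15* (5.51 ± 1.73) were next, with 7.47 as the lowest value of *Cldn8* and 7.44 as the highest of *Cldn15*, and *Cldn1* was again the lowest at 0.286 ± 0.138. *Cldn15*, among the 3 leading genes in crypts, was thus the lowest in tumors after *Cldn1*. Gut region, cell make-up, tumor state and the *Apc* genotype of the mice all differ between these tissues and cannot be told apart. The ages of the mice may also differ.

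**Figure D1:**
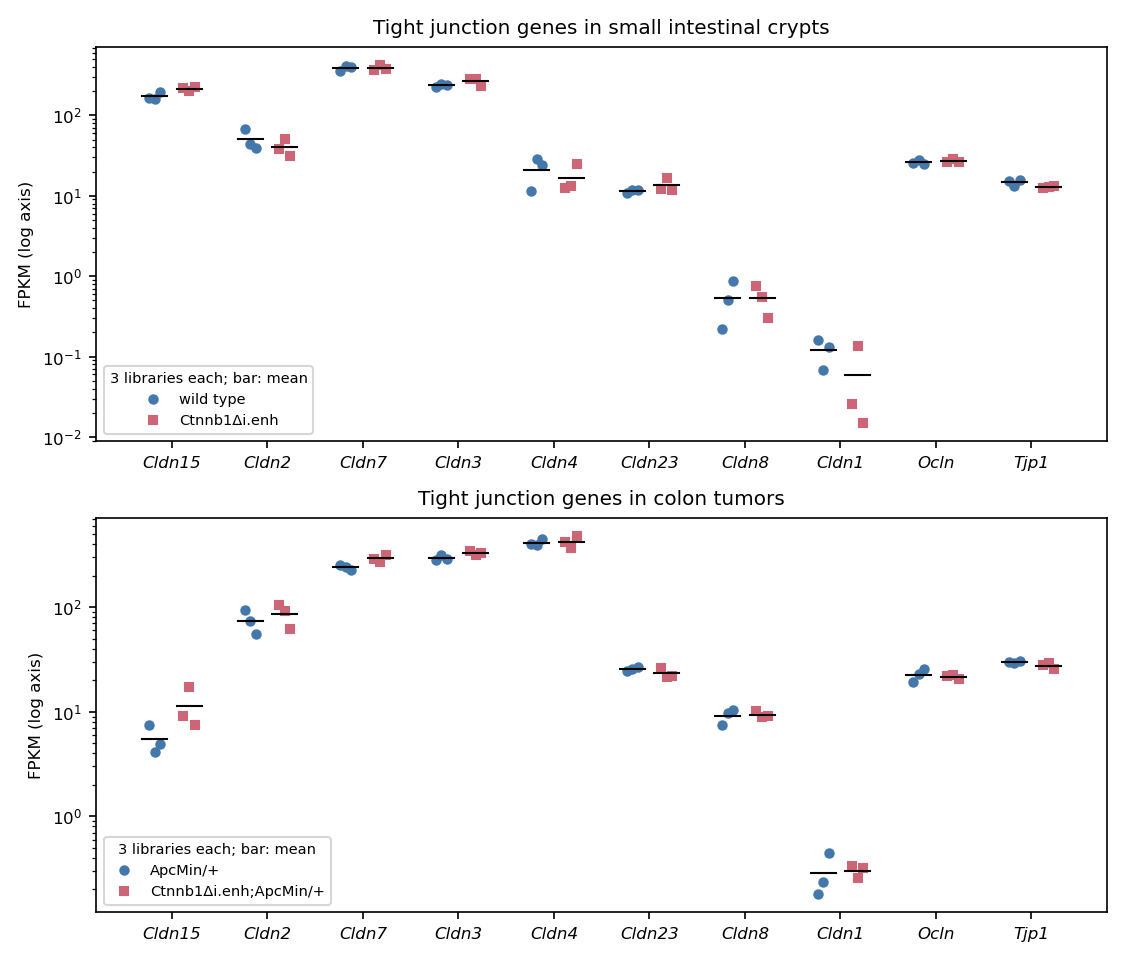
FPKM of the 10 genes in each library, on a log axis, for crypts (top) and colon tumors (bottom); circles are control and squares enhancer knockout libraries, and bars are means of 3. *Cldn4* lies between 11.4 and 28.3 in crypts and between 367 and 480.3 in tumors, in tables that were normalized separately.

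Shares within a library do not depend on how tables were scaled. Among the 33 claudin genes of the tables, *Cldn7*, *Cldn3* and *Cldn15* made up 43.1% ± 1.68, 26.7% ± 0.559 and 19.4% ± 2.02 (SD, n = 3) of the summed claudin FPKM in wild-type crypts. In *Apc*Min/+ tumors *Cldn4* held 37.8% ± 2.55, *Cldn3* 27.1% ± 1.45 and *Cldn7* 22.0% ± 1.11. *Cldn3* and *Cldn7* were thus among the 3 leading claudins of both tissues, beside *Cldn15* in crypts and *Cldn4* in tumors. *Cldn4* held 2.35% ± 0.909 in wild-type crypts and *Cldn15* 0.504% ± 0.158 in *Apc*Min/+ tumors. The pore-forming pair was reversed between the tissues: *Cldn2* was at 0.409, 0.278 and 0.20 of the FPKM of *Cldn15* in wild-type crypts, and at 12.5, 17.9 and 11.1 times that of *Cldn15* in *Apc*Min/+ tumors. No test was made across the tables.

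**Figure D2:**
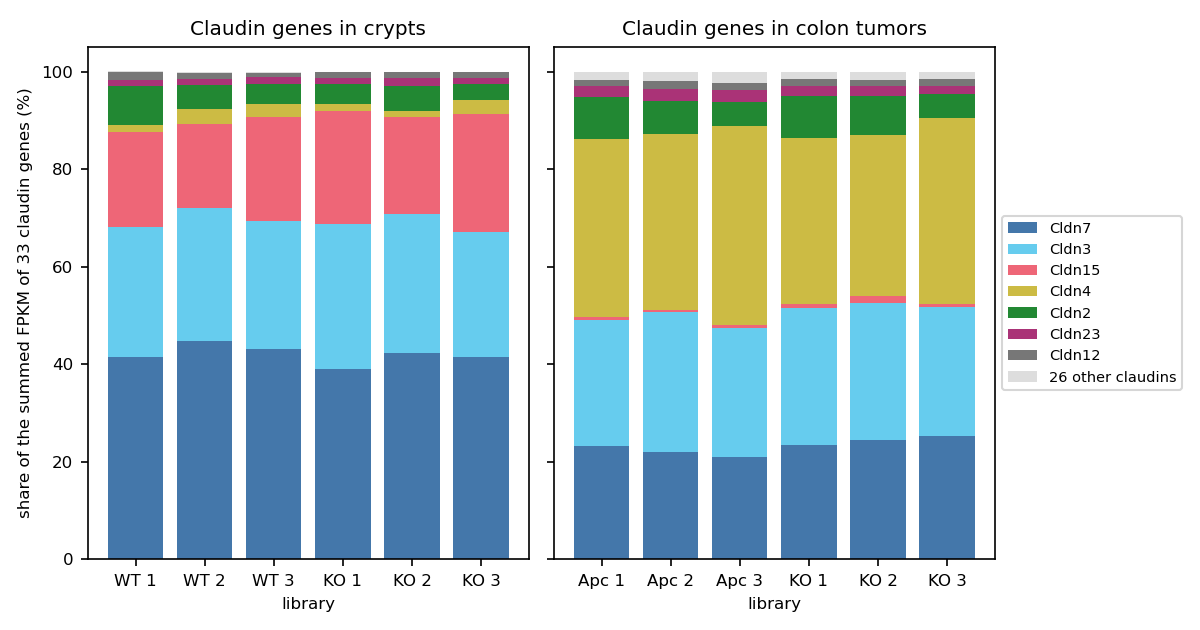
Share of each claudin gene in the summed FPKM of all 33 claudin genes, in percent, for each crypt library (left; WT, wild type; KO, *Ctnnb1*Δi.enh) and tumor library (right; Apc, *Apc*Min/+; KO, *Ctnnb1*Δi.enh;*Apc*Min/+). *Cldn15* holds between 17.3% and 24.3% in crypts and between 0.377% and 1.55% in tumors.

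In crypts, the comparison asked how junction genes differ without the enhancer in a tissue whose stem cells are maintained by Wnt signaling. *Cldn15*, *Cldn23*, *Cldn3*, *Ocln*, *Cldn8* and *Cldn7* were higher in knockout crypts and *Cldn2*, *Cldn4* and *Tjp1* lower, although *Cldn7* and *Cldn8* were lower relative to 6 epithelial marker genes and *Cldn7* and *Ocln* after quantile normalization, scalings under which the median over all tested genes was -0.03 and 0.01. None of these differences passed the test. Of the 9 members tested, those that averaged an FPKM of 0.5 or more and thus not *Cldn1*, none had an adjusted p under 0.05 in limma and none an unadjusted p under 0.05. Among all 14176 genes tested, 0 (0%) passed adjustment, while 3.48% were higher in the knockout with an unadjusted p under 0.05 and 2.36% lower (829 genes, and 805 by limma-voom on the recovered fragments, with 0 after adjustment). The median log2 fold change of the 9 members was 0.04, and that of all tested genes 0.01.

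*Cldn15* had the smallest p of the members. Its FPKM was 167, 158 and 197 in wild-type and 219.7, 199 and 224 in knockout crypts. The knockout libraries were all above the wild-type ones, with 199 and 197 as the closest values. The log2 fold change, on the scale of FPKM plus 0.5, was 0.30 (standard error 0.146, 95% interval -0.04 to 0.65, adjusted p = 0.860 from limma, higher in 3 of 3 libraries), and between 0.21 and 0.45 under the 3 other scalings. The 2 wild-type libraries with stomach genes were also the 2 lowest for *Cldn15*, and without them the log2 fold change was 0.12 with an adjusted p of 0.732 in limma. Leaving out wild-type replicate 3 instead gave 0.40, with an unadjusted p of 0.0203 and an adjusted p of 0.580 in limma.

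*Cldn2*, the other pore-forming claudin, had FPKM of 68.5, 43.8 and 39.3 in wild-type and 38.6, 51.0 and 31.3 in knockout crypts. Wild-type replicate 1 was the highest and the groups overlapped. The log2 fold change of -0.31 (95% interval -0.92 to 0.30, adjusted p = 0.907 from limma, with only replicate 1 of the controls above all knockout libraries) became 0.01 without wild-type replicates 1 and 2. *Cldn2* was at 0.176, 0.256 and 0.140 of the FPKM of *Cldn15* in knockout crypts, within a span that overlapped the wild-type ratios (exact permutation test, two-sided p = 0.2, where 3 libraries against 3 cannot give less than 0.1).

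Among the other claudins of the crypts, the abundant *Cldn7* overlapped between genotypes, with FPKM of 353, 408 and 399 in wild-type and 371, 425 and 382 in knockout crypts. Its log2 fold change of 0.02 (95% interval -0.34 to 0.38) was -0.03 relative to the epithelial markers, -0.02 after quantile normalization and 0.17 after rescaling to the same sum. *Cldn3* was at 227, 249 and 242 against 282, 287 and 235, a log2 fold change of 0.16 (95% interval -0.19 to 0.50) that was between 0.04 and 0.31 under the 3 other scalings. The FPKM of *Cldn4* was 11.4, 28.3 and 24.0 in wild-type and 12.4, 13.1 and 24.9 in knockout crypts, so that low and high libraries occurred in both genotypes. *Cldn23* was at 10.9, 11.7 and 11.7 in wild-type and 12.3, 16.5 and 11.7 in knockout crypts, with groups that were apart by less than these digits show. *Cldn8* was at most 0.866 in these libraries.

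*Tjp1* was at 15.2, 13.3 and 15.8 in wild-type and 12.5, 12.7 and 13.2 in knockout crypts. The knockout libraries were all below the wild-type ones by a narrow gap. Its log2 fold change was -0.20 (standard error 0.113, 95% interval -0.47 to 0.07, adjusted p = 0.881 from limma), between -0.25 and -0.05 under the 3 other scalings, and -0.29 without the 2 wild-type libraries that held stomach genes. *Ocln* lay between 24.8 and 28.9 in all 6 crypt libraries, with a log2 fold change of 0.06 that was -0.01 after quantile normalization and 0.20 after rescaling to the same sum. Without wild-type replicates 1 and 2 the log2 fold changes of *Cldn3*, *Cldn4*, *Cldn23* and *Ocln* were 0.14, -0.57, 0.19 and 0.13, against 0.16, -0.30, 0.22 and 0.06 with all libraries, and those of *Cldn7* and *Cldn8* -0.02 and -0.42 against 0.02 and 0.04. In all, the genotypes did not overlap for *Cldn15* and *Cldn23*, higher in the knockout, and for *Tjp1*, lower in the knockout. Among all tested genes 6.79% were higher and 5.15% lower without overlap. After rescaling of the libraries to the same sum of FPKM, which shifted the median log2 fold change over the tested genes to 0.14, 1 member had groups that did not overlap, beside 10% of tested genes higher and 2.18% lower, and 1 member, *Cldn15*, an unadjusted p under 0.05 (0.0362, limma). Relative to the epithelial markers all 9 overlapped, beside 2.48% of genes higher and 6.16% lower without overlap. Without wild-type replicates 1 and 2, where 1 library stands against 3, 5 members did not overlap, beside 35.4% of genes higher and 29.2% lower.

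**Figure D3:**
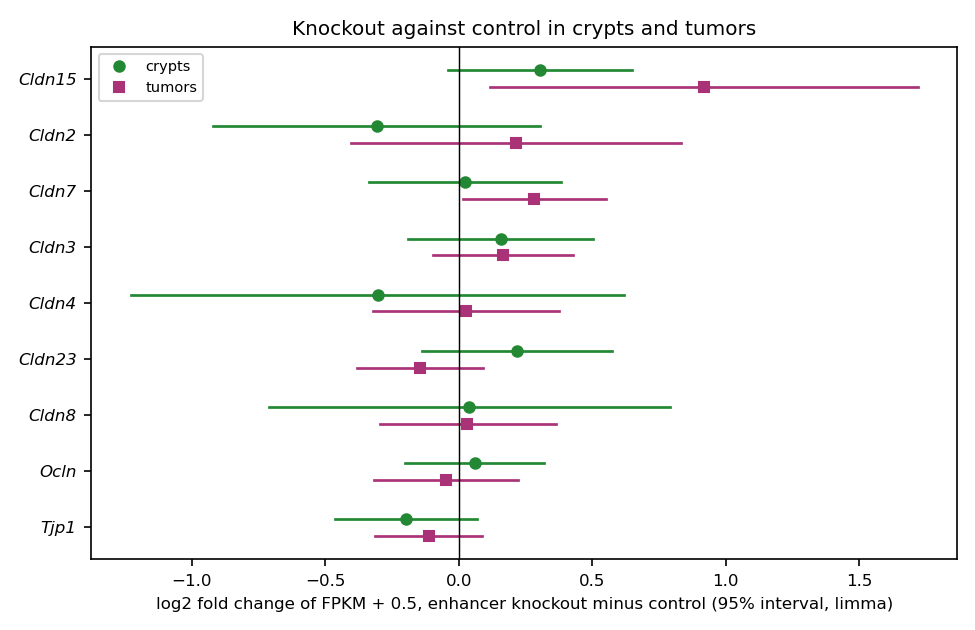
Log2 fold change (knockout minus control, on the scale of FPKM plus 0.5) of the 9 tested genes with 95% intervals from limma, in crypts (circles) and tumors (squares), each from 3 libraries against 3. The intervals of *Cldn15* (0.12 to 1.72) and *Cldn7* (0.02 to 0.55) in tumors lie above 0, though *Cldn7* is at -0.00 relative to 6 epithelial marker genes, and no gene passed adjustment in either tissue.

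Markers of cell types also differed between the crypt groups. Directions within lists are those of the log2 fold change. On this scale all 6 Paneth markers were lower in knockout crypts, 1 of them (*Mmp7*) at an unadjusted p under 0.05, although the mean FPKM of *Ang4* was higher, at 1748 against 1647, and their summed FPKM was 18980, 27817 and 52309 in wild-type and 20906, 18076 and 20775 in knockout libraries, with *Defa24* as the most abundant. All 7 enterocyte markers were higher on the log2 scale, although the mean FPKM of *Apoa1* was lower in the knockout, at 1976 against 2094, with sums of 3099, 4633 and 9103 against 6956, 5151 and 7961 led by *Fabp2*. *Mmp7*, *Ang4* and *Apoa1* were singled out after their values were seen. The 6 epithelial markers summed to 3620, 4132 and 4273 in wild-type and 3937, 4808 and 4133 in knockout crypts, with 3 higher and 3 lower and *Krt8* leading. The Paneth, enterocyte and epithelial sums all overlapped between genotypes, with wild-type replicate 3 the highest for Paneth and enterocyte markers. Colonocyte markers, in contrast, summed to 95, 97.9 and 94.0 in wild-type and 125, 125 and 160.5 in knockout crypts, led by *Car4*. Of the 4 tested, 3 (*Car4*, *Slc26a3* and *Slc37a2*) were higher with an unadjusted p under 0.05, where 3.48% of all tested genes were higher and 2.36% lower with such a p. *Ceacam20* was lower, with a log2 fold change of -0.42. *Car1* and *Aqp8* of this list were below the filter, with at most 1 and 9 fragments per crypt library. Whether these values came from colonocyte-like cells was not tested. Stem cell markers led by *Olfm4* summed to 1003, 802 and 561 against 1007, 844 and 758, with 3 higher and 1 lower. Goblet cell markers led by *Tff3* were higher for 1 and lower for 5 of 6 genes (5583, 8518 and 9076 against 5138, 6093 and 7731). Markers of cells outside the epithelium were scarce. Fibroblast markers led by *Dcn* summed to 5.92, 3.59 and 5.0 against 1.73, 4.64 and 2.50 (2 of 2 tested lower, *Col3a1* with an unadjusted p under 0.05), endothelial ones led by *Esam* to 2.79, 2.79 and 2.72 against 2.34, 2.13 and 2.45 (2 of 2 tested lower), and smooth muscle ones, none of which passed the filter, to at most 0.923. The tested endothelial genes were *Esam* and *Pecam1*, and whether they came from endothelial cells here was not tested. The rest of that list was below the filter, with *Cdh5* at 0 or 1, *Kdr* at 0 to 3, *Tek* at 2 to 16 and *Vwf* at 12 to 28 fragments per library. Immune markers led by *Cd8a*, with *S100a8* listed at 0, summed to 50.7, 55.7 and 59.0 against 46.6, 51.8 and 44.3, with 2 higher and 5 lower of 7 tested, *Jchain* among the lower ones with an unadjusted p under 0.05. *Col3a1* and *Jchain* were also singled out after their values were seen. The part of these cell types in the values of the junction genes was not tested, and in bulk RNA fewer cells of a type and less RNA per cell cannot be told apart.

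In colon tumors, which form in *Apc*Min mice after loss of *Apc*, a gene whose protein directs the breakdown of β-catenin, the same contrast was made. *Cldn15* and *Cldn7* were higher in knockout tumors with an unadjusted p under 0.05 in limma, although *Cldn7* was level with the controls relative to 6 epithelial marker genes, and no member was lower with such a p on the deposited scale. *Tjp1* (unadjusted p = 0.0109) and *Cldn23* (0.0132) were lower with such a p relative to the epithelial markers, where 5072 of all 16743 tested genes were lower and 192 higher with such a p, and *Cldn23* (0.0485) after quantile normalization, where 1282 were lower and 1116 higher (limma). None of the 9 tested members had an adjusted p under 0.05. Among all 16743 genes tested, 0 (0%) passed adjustment, and 8.46% were higher in the knockout with an unadjusted p under 0.05 and 6.0% lower (2421 genes, and 2541 by limma-voom, with 0 after adjustment). Of the 9 members 6 were higher and 3 lower, with a median log2 fold change of 0.03 beside 0.01 over all tested genes, but *Cldn2*, *Cldn3*, *Cldn4* and *Cldn8* were lower instead of higher relative to the epithelial markers, *Cldn4* and *Cldn8* after rescaling to the same sum, and *Cldn3* and *Cldn4* after quantile normalization. The median over all tested genes was -0.28, -0.09 and -0.01 under these scalings, and the members that turned relative to the epithelial markers or after rescaling were above it.

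*Cldn15* had FPKM of 7.44, 4.11 and 4.97 in *Apc*Min/+ and 9.07, 17.3 and 7.46 in knockout tumors. Knockout replicate 2 was the highest by far, and the lowest knockout library was just above the highest control, at 7.46 and 7.44. Between 144 and 590 fragments per library lay behind these values. The log2 fold change was 0.92 (standard error 0.336, 95% interval 0.12 to 1.72, unadjusted p = 0.0303 and adjusted p = 0.320 from limma, higher in 3 of 3 libraries). Without knockout replicate 2 it was 0.58, with an unadjusted p of 0.0633 in limma, and over all alternatives it was between 0.58 and 1.16 with an adjusted p between 0.207 and 0.602. Its unadjusted p was between 0.0168 and 0.0898 with each library left out, 0.0550 after rescaling to the same sum and 0.0852 relative to the epithelial markers (limma). Its share of claudin FPKM was 0.504% ± 0.158 in *Apc*Min/+ and 0.959% ± 0.518 in knockout tumors (SD, n = 3; exact permutation test, two-sided p = 0.2).

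Genes of intestinal identity and position also differed between the tumor libraries. The homeobox factor gene *Cdx2*, which directs intestinal identity and was singled out after its values were seen, had FPKM of 10.2, 2.22 and 2.01 in *Apc*Min/+ and 7.45, 26.5 and 4.17 in knockout tumors. The same library, knockout replicate 2, was thus highest for both genes. The 6 Paneth markers, all higher in the knockout with none at an unadjusted p under 0.05, summed to 1650, 1741 and 1850 in *Apc*Min/+ and 2571, 4117 and 1359 in knockout tumors, with *Lyz1* leading. *Apc*Min/+ replicate 1 and knockout replicates 1 and 2, where *Hoxd13* was lowest, held the 3 highest values of *Cdx2* and of *Cldn2*. The part of these genes in the claudin values was not tested.

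**Figure D4:**
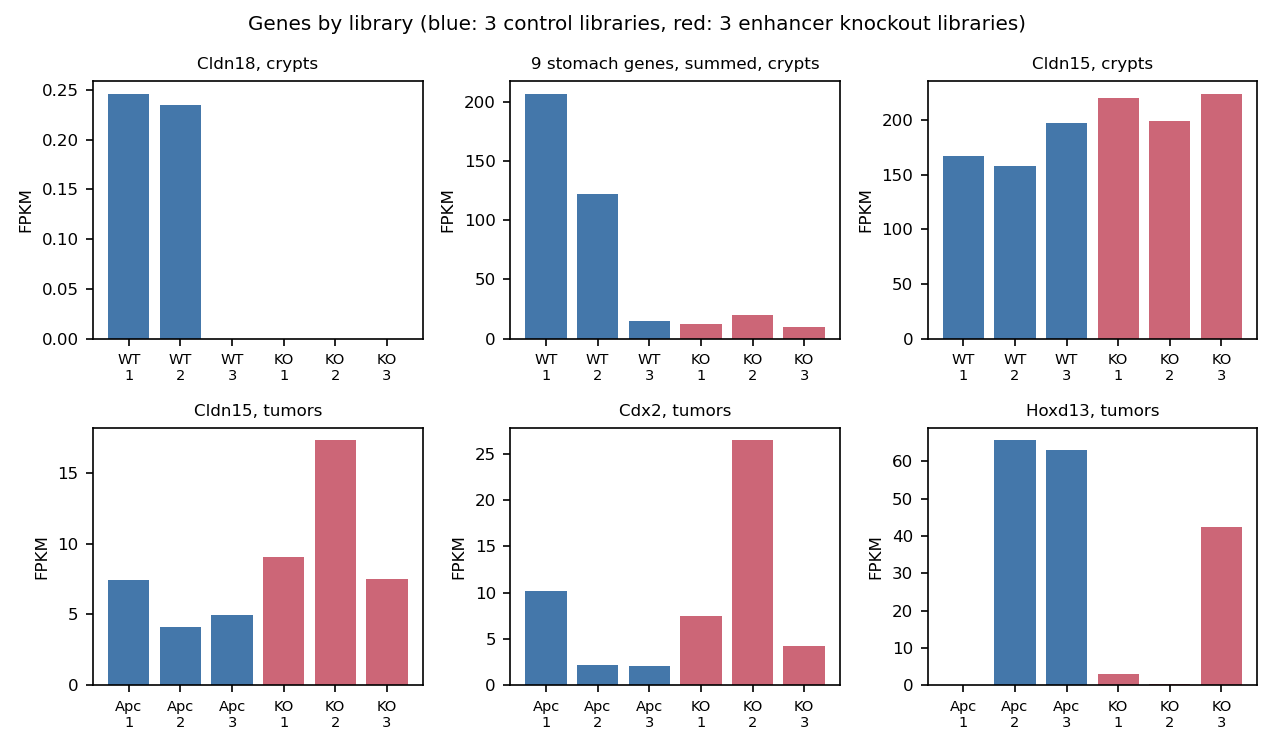
FPKM by library (bars from 0) of *Cldn18*, the sum of 9 stomach genes and *Cldn15* in crypts (top; WT, wild type; KO, *Ctnnb1*Δi.enh) and of *Cldn15*, *Cdx2* and *Hoxd13* in tumors (bottom; Apc, *Apc*Min/+; KO, *Ctnnb1*Δi.enh;*Apc*Min/+). Among crypt libraries *Cldn18* is at 0 outside wild-type replicates 1 and 2. Its tumor values, not drawn, lie between 0.0408 and 0.652. *Cldn15* and *Cdx2* are both highest in knockout tumor replicate 2, at 17.3 and 26.5.

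*Cldn2* was at 93.4, 73.5 and 55.1 in *Apc*Min/+ and 106, 91.0 and 61.2 in knockout tumors. The spread within each genotype was wider than the difference between them, and the log2 fold change of 0.21 (95% interval -0.41 to 0.83) was -0.07 relative to the epithelial markers and between 0.02 and 0.44 with each library left out. *Cldn2* was at 11.7, 5.26 and 8.21 times the FPKM of *Cldn15* in knockout tumors, against 11.1 to 17.9 in *Apc*Min/+ tumors (exact permutation test, two-sided p = 0.2).

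*Cldn7*, whose protein binds EpCAM at the lateral membrane, had FPKM of 253, 239.9 and 229 in *Apc*Min/+ and 289, 272 and 319 in knockout tumors. All knockout libraries were above all controls. The log2 fold change was 0.28 (standard error 0.112, 95% interval 0.02 to 0.55, unadjusted p = 0.0412 and adjusted p = 0.336 from limma). Its share of claudin FPKM was 22.0% ± 1.11 in *Apc*Min/+ and 24.4% ± 0.948 in knockout tumors, again without overlap (SD, n = 3; exact permutation test, two-sided p = 0.1, the smallest this design can give). Epithelial markers differed in the same direction. All 6 were higher in knockout tumors without overlap of the groups, as were 11.4% of all tested genes, 1 at an unadjusted p under 0.05, as 8.46% were, and their summed FPKM, led by *Krt8*, was 4079, 4158 and 3607 in *Apc*Min/+ and 4819, 4673 and 4969 in knockout tumors. Relative to these 6 markers in the same library the log2 fold change of *Cldn7* was -0.00, while that scaling shifted the median over the tested genes to -0.28. *Cldn7* had an unadjusted p of 0.0956 after rescaling to the same sum, 0.405 after quantile normalization, where its log2 fold change was 0.07, 0.107 with the replicate number as a block, and between 0.0273 and 0.122 with each library left out (limma).

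*Cldn3* was at 283, 313 and 291 in *Apc*Min/+ and 347, 313 and 333 in knockout tumors. The groups met at 313 without overlapping, and the log2 fold change was 0.16 (95% interval -0.10 to 0.43), but -0.12 relative to the epithelial markers and -0.01 after quantile normalization. *Cldn4*, the most abundant claudin of the tumors, had FPKM of 398, 395 and 446 against 421, 367 and 480.3. Its groups overlapped fully, with a log2 fold change of 0.03 (95% interval -0.32 to 0.38) that was between -0.26 and -0.08 under the 3 other scalings. *Cldn23* was at 24.8, 25.6 and 26.9 in *Apc*Min/+ and 26.2, 21.7 and 22.1 in knockout tumors, a log2 fold change of -0.15 that was between -0.43 and -0.24 under the 3 other scalings. As a share of claudin FPKM, *Cldn23* held 2.36% ± 0.0928 and 1.94% ± 0.186, and here the groups did not overlap (SD, n = 3; exact permutation test, two-sided p = 0.1). Of the 33 claudin genes, *Cldn5* and *Cldn6* were also lower in share without overlap in tumors, and *Cldn7* alone was higher. No claudin share was without overlap in crypts. A share also depends on the other claudins, whose summed FPKM differed between the tumor groups. *Cldn8* lay between 7.47 and 10.5 in all tumor libraries, and *Cldn1* between 0.179 and 0.442.

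*Tjp1* was at 29.9, 29.1 and 30.6 in *Apc*Min/+ and 28.1, 29.3 and 25.4 in knockout tumors, which overlapped, with a log2 fold change of -0.11 (95% interval -0.31 to 0.09) that was -0.22 after rescaling to the same sum, -0.21 after quantile normalization and -0.40 relative to the epithelial markers. *Ocln* lay between 19.3 and 25.4, with a log2 fold change of -0.05 that was between -0.33 and -0.13 under the 3 other scalings. The groups did not overlap for 3 members, *Cldn15*, *Cldn7* and *Cldn3*, all higher in the knockout, where 11.4% of all tested genes were higher and 10.6% lower without overlap. After rescaling to the same sum 2 members did not overlap, *Cldn7*, higher, and *Tjp1*, lower, beside 5.74% of genes higher and 17.5% lower. Relative to the epithelial markers 2 did not, *Tjp1* and *Cldn23*, both lower, beside 1.46% of genes higher and 39.7% lower. On the deposited scale the summed FPKM of the 33 claudin genes was 1093, 1090 and 1095 in *Apc*Min/+ and 1235, 1116 and 1260 in knockout tumors (exact permutation test, two-sided p = 0.1). The sum over all genes was also above all controls in knockout tumors, at 317306, 309135 and 346851 against 305396, 301546 and 293329. In crypts the claudin sum was 853, 912 and 923 in wild-type and 948, 1005 and 921 in knockout libraries (two-sided exact permutation p = 0.2). The difference of any member between the tissues was not tested, since the tables were normalized separately.

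Goblet and fibroblast markers were higher in knockout tumors on the deposited scale, where 8.46% of all tested genes were higher and 6.0% lower with an unadjusted p under 0.05. All 6 goblet markers were higher with an unadjusted p under 0.05, and summed to 1298, 1321 and 1344 in *Apc*Min/+ and 2484, 2949 and 2666 in knockout tumors, with *Spink4* as the most abundant. All 6 fibroblast markers were higher, 4 at an unadjusted p under 0.05, with sums of 345, 216 and 208 against 346, 452 and 358 led by *Col1a1*. None of these genes passed adjustment, and the knockout sums were above all controls for both lists, as they were for the endothelial, smooth muscle and colonocyte lists that follow. Endothelial markers led by *Cdh5* were higher for 5 of 6 genes with a median log2 fold change of 0.08, 2 of them (*Pecam1* and *Esam*) with an unadjusted p under 0.05 (39.2, 37.5 and 32.0 against 44.1, 42.9 and 43.8). Smooth muscle markers led by *Acta2* were higher for 3 genes, 1 of them (*Acta2*) with an unadjusted p under 0.05, and lower for 2 (122, 125 and 102 against 142, 128 and 139). Colonocyte markers led by *Car1* were higher for all 6 genes, 1 of them (*Car1*) with an unadjusted p under 0.05 (94.7, 79.7 and 94.8 against 115, 248 and 152). Immune markers led by *Jchain* were higher for 4 and lower for 2 of 6 tested, with an unadjusted p under 0.05 for *C1qa*, higher, and *S100a8*, lower (405, 274 and 270.0 against 378, 319 and 273). Stem cell markers led by *Smoc2* were lower for 3 of 3 tested (71.6, 90.7 and 80.8 against 89.5, 62.2 and 71.6). Small intestinal markers led by *Onecut2* were higher for 1 and lower for 2 of 3 tested, 1 of these (*Onecut2*) with an unadjusted p under 0.05 (23.2, 17.1 and 13.6 against 14.7, 9.28 and 10.5). Stomach genes, led by *Gkn3* in tumors, were lower for 4 of 4 tested, 2 of them (*Atp4a* and *Muc6*) with an unadjusted p under 0.05, and all knockout sums were below all controls (34.5, 29.4 and 28.8 against 20.5, 22.8 and 13.4). No gene of these lists passed adjustment, and *Pecam1*, *Esam*, *C1qa*, *S100a8*, *Atp4a* and *Muc6* were singled out after their values were seen. Enterocyte markers led by *Fabp2*, with 1 tested and higher, summed to at most 6.71. The part of these lists in the claudin values was not tested.

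Promoter sequences of the pore-forming claudins and of *Cldn7* are shown because the order of *Cldn2* and *Cldn15* was reversed between the tissues and *Cldn15* and *Cldn7* had an unadjusted p under 0.05 in tumors, although *Cldn7* was level with the controls relative to the epithelial markers. RefSeq promoter windows of build GRCm38.p6, from 250 bases before to 50 bases after a start, were found for 8 of the 10 genes, in 10 windows, and not for *Cldn8* and *Cldn23*. They were searched on both strands for 9 short motifs. For TCF/LEF proteins, the DNA-binding partners of β-catenin, these were CTTTGAT and the variant of it that reads CTTTGTT. For CDX factors the letters were TTTATG and, as a variant, also TTTATT. The HNF4 motif was CAAAGTCCA, that of HNF1 was GTTAAT, and for GATA factors AGATAA was used. The cyclic AMP response element was searched as TGACGTCA, and the motif of AP-1 as TGACTCA. Capitals mark the matches, and the sequences run 5′ to 3′ along the gene.
*Cldn15* (chr5:136967619-136967918, plus strand): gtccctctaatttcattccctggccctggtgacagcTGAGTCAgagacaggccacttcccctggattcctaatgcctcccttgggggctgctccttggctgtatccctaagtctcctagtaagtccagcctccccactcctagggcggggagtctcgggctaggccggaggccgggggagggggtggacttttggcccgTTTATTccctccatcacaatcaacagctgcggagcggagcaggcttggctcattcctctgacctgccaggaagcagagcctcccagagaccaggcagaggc
*Cldn2* (chrX:139800558-139800857, plus strand): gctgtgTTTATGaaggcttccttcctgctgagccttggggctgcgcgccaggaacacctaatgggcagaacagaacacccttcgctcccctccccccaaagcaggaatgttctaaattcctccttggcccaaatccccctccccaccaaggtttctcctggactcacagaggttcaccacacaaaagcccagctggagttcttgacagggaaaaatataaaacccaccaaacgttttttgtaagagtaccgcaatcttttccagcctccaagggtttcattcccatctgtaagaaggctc
*Cldn7*, second start (chr11:69965171-69965470, plus strand): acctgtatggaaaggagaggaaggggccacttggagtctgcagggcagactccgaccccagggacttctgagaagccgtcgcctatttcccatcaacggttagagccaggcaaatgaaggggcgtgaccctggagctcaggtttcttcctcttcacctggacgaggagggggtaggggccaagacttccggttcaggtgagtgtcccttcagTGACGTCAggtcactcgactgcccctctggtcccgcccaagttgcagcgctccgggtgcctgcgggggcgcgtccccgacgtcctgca
The *Cldn15* window holds TGACTCA, which 5.2% of all 32851 windows of this length hold, and TTTATT, which 19.6% hold. The *Cldn2* window holds TTTATG (11.9% of windows), and that of the second *Cldn7* start TGACGTCA (1.79%). *Cldn4* holds CTTTGTT (5.85%) and TGACTCA, and *Cldn1* GTTAAT (7.1%). CTTTGAT (3.73%), CAAAGTCCA (0.475%) and AGATAA (11.2%) were in none of the 10 windows, and *Cldn3*, *Ocln*, *Tjp1* and the first *Cldn7* start held no match to any motif. A match is a run of letters and not a measured binding site.

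The genes lie at separate places in the GRCm38 coordinates of the tables. *Cldn15* (ENSMUSG00000001739) is on chromosome 5 from 136966616 to 136975858 on the plus strand, *Cldn7* (ENSMUSG00000018569) on chromosome 11 from 69964779 to 69967885 on the plus strand, and *Cldn2* (ENSMUSG00000047230) on chromosome X from 139800828 to 139811386 on the plus strand. *Cldn3* (ENSMUSG00000070473; chromosome 5, 134986214 to 134987472, plus strand) and *Cldn4* (ENSMUSG00000047501; chromosome 5, 134945119 to 134946934, minus strand) are neighbors, each with 1 exon. *Tjp1* (ENSMUSG00000030516) spans chromosome 7 from 65296165 to 65527781 on the minus strand. An antisense gene, *Wbscr25*, overlaps *Cldn3* by 40 bases, with a mean FPKM of 0.175 in crypts and 0.798 in tumors against 254 and 313 for *Cldn3*. The 3 small genes inside *Tjp1* touched none of its exons. No stretch of 100 bases was shared between a transcript of the 10 genes and one of another gene.

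Other claudins were mostly scarce, with *Cldn12* as the most abundant of them in both tissues. Of the 25 further claudin genes, 1 passed the filter in crypts and 4 in tumors, and the others were below the filter. *Cldn12* was at 13.2, 12.2 and 9.01 in wild-type and 11, 12.4 and 10.4 in knockout crypts, and between 14.2 and 18.4 in tumors, with log2 fold changes of -0.01 and -0.04. *Cldn6*, a claudin of embryonic epithelia, had FPKM of 3.55, 3.17 and 7.19 in *Apc*Min/+ and 1.88, 2.90 and 2.42 in knockout tumors. All knockout libraries were below the controls, with a log2 fold change of -0.76 (standard error 0.301, unadjusted p = 0.0412, adjusted p = 0.336 from limma). *Apc*Min/+ replicate 3, at 7.19, was far above the other controls and enlarged this difference. The endothelial claudin *Cldn5* lay between 3.74 and 4.92 in tumors (log2 fold change -0.13) and at 0 in 5 of 6 crypt libraries, and *Cldn14* between 0.609 and 1.99 in tumors (0.38).

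The remaining membrane proteins and scaffolds of the junction, given on the scale of the deposited values alone, held no gene with an unadjusted p under 0.05 in crypts. Of 7 tested membrane proteins 1 was higher and 6 lower, with a median log2 fold change of -0.05. The smallest p belonged to *Ildr1*, the gene of an angulin of tricellular contacts, at 2.23, 2.98 and 1.86 in wild-type and 1.53, 1.90 and 1.74 in knockout crypts (log2 fold change -0.34, adjusted p = 0.860 from limma). Of 9 tested scaffolds 2 were higher and 7 lower, with a median of -0.07. *Magi3* was at 8.64, 8.36 and 8.76 in wild-type and 7.21, 7.12 and 8.28 in knockout crypts, and *Cgnl1*, the gene of paracingulin, at 0.585, 0.625 and 0.748 against 0.478, 0.274 and 0.345. The groups did not overlap for either, both lower in the knockout like *Tjp1* and 5.15% of all tested genes, with log2 fold changes of -0.18 (adjusted p = 0.893 from limma) and -0.42 (adjusted p = 0.860 from limma).

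In tumors 9 membrane proteins were tested, of which 6 were higher and 3 lower with a median log2 fold change of 0.15. *Cxadr*, the gene of the coxsackievirus and adenovirus receptor, was at 35.1, 36.6 and 42.7 in *Apc*Min/+ and 33.2, 27.1 and 31.0 in knockout tumors, all below the controls (log2 fold change -0.32, unadjusted p = 0.0276, adjusted p = 0.317 from limma). Of 11 tested scaffolds 8 were higher and 3 lower (median 0.14). The scaffold *Amot*, the gene of angiomotin, which links junctions to the YAP pathway, had the smallest p of all lists shown here other than the marker lists. It was at 19.1, 21.9 and 22.6 in *Apc*Min/+ and 14.0, 15.0 and 15.1 in knockout tumors. The gap between the groups was larger than the spread within either, with a log2 fold change of -0.51 (standard error 0.0924, unadjusted p = 0.00102, adjusted p = 0.269 from limma). Cingulin (*Cgn*), which binds ZO-1 and myosin, was at 28.8, 27.6 and 26 against 32.3, 32.4 and 30.6 (log2 fold change 0.21, adjusted p = 0.325 from limma).

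Of 12 genes of apical polarity, whose proteins set the place of the junction, 9 were higher and 3 lower in crypts with a median log2 fold change of 0.01, and in tumors 6 were higher and 6 lower with a median of 0.02. *Crb3* was at 39.7, 38.9 and 38.3 in *Apc*Min/+ and 49.2, 41.4 and 55.1 in knockout tumors (log2 fold change 0.30), and *Pard6g* at 6.31, 7.02 and 9.04 against 6.29, 5.28 and 5.33 (-0.37). On the deposited scale these were the 2 with an unadjusted p under 0.05, in opposite directions, and neither passed adjustment. No other scaling is given for this list or for the junction lists that follow. Among all tested genes in tumors, 8.46% were higher and 6.0% lower with such a p.

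EpCAM and the membrane proteases and inhibitors that act on EpCAM and claudin 7 were measured as a list of 5. In crypts 3 were higher and 2 lower of 5 tested (median 0.03). In tumors 3 were higher and 2 lower (median 0.15). *Spint2*, which encodes an inhibitor of the proteases matriptase and prostasin, was at 161, 142 and 133 in *Apc*Min/+ and 189, 210.0 and 205 in knockout tumors. All knockout libraries were above all controls, as for *Cldn7*, for *Epcam* and *Spint1* of this list and for 11.4% of all tested genes. The log2 fold change of *Spint2* was 0.47 (standard error 0.110, unadjusted p = 0.00404, adjusted p = 0.269 from limma). Among all tested genes 8.46% were higher and 6.0% lower with an unadjusted p under 0.05. In crypts *Spint2* was at 168, 215 and 211 against 176, 189.9 and 184, with overlap.

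Of the regulators of the junction through RhoA and myosin, 5 were higher and 4 lower in crypts and 5 higher and 5 lower in tumors. *Arhgef2*, the gene of the junctional RhoA activator GEF-H1, was at 26.4, 26.3 and 24.6 in *Apc*Min/+ and 22.1, 20.7 and 22.2 in knockout tumors (log2 fold change -0.24, adjusted p = 0.298 from limma). *Myl9*, a myosin light chain that smooth muscle also expresses, was at 54.5, 39.8 and 38.8 against 60.6, 54.2 and 64.8 (log2 fold change 0.44, adjusted p = 0.308 from limma), and only *Apc*Min/+ replicate 1 overlapped with the knockout tumors.

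Transcription factors known to act on junction genes were higher for 11 and lower for 4 of 15 tested in tumors, with a median log2 fold change of 0.22 beside 0.01 over all tested genes, and 3 of them, *Cdx1*, *Zeb1* and *Klf4*, had an unadjusted p under 0.05, all higher, where 8.46% of all tested genes were higher and 6.0% lower with such a p. *Cdx1*, a homeobox factor of intestinal identity, was at 53.5, 69.2 and 56.4 in *Apc*Min/+ and 88.2, 97.3 and 86.0 in knockout tumors, clear of overlap (log2 fold change 0.60, standard error 0.120, unadjusted p = 0.00179, adjusted p = 0.269 from limma). *Zeb1*, a repressor of epithelial genes that stromal cells also express, was at 1.37, 1.27 and 1.28 against 1.68, 1.96 and 1.88 (log2 fold change 0.37). *Klf4*, a factor of goblet cell maturation, was at 31.7, 30.8 and 40.6 against 42.9, 61.4 and 41.8 (0.49). In crypts 5 were higher and 5 lower of 10 tested, none at an unadjusted p under 0.05. *Gata4*, a factor of the proximal small intestine, was at 30.7, 20.4 and 25.8 in wild-type and 37.5, 31.1 and 32.0 in knockout crypts (log2 fold change 0.40, adjusted p = 0.849 from limma), without overlap, and *Cdx1* at 149.9, 139 and 98.8 against 130.3, 176 and 143.

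**Figure D5:**
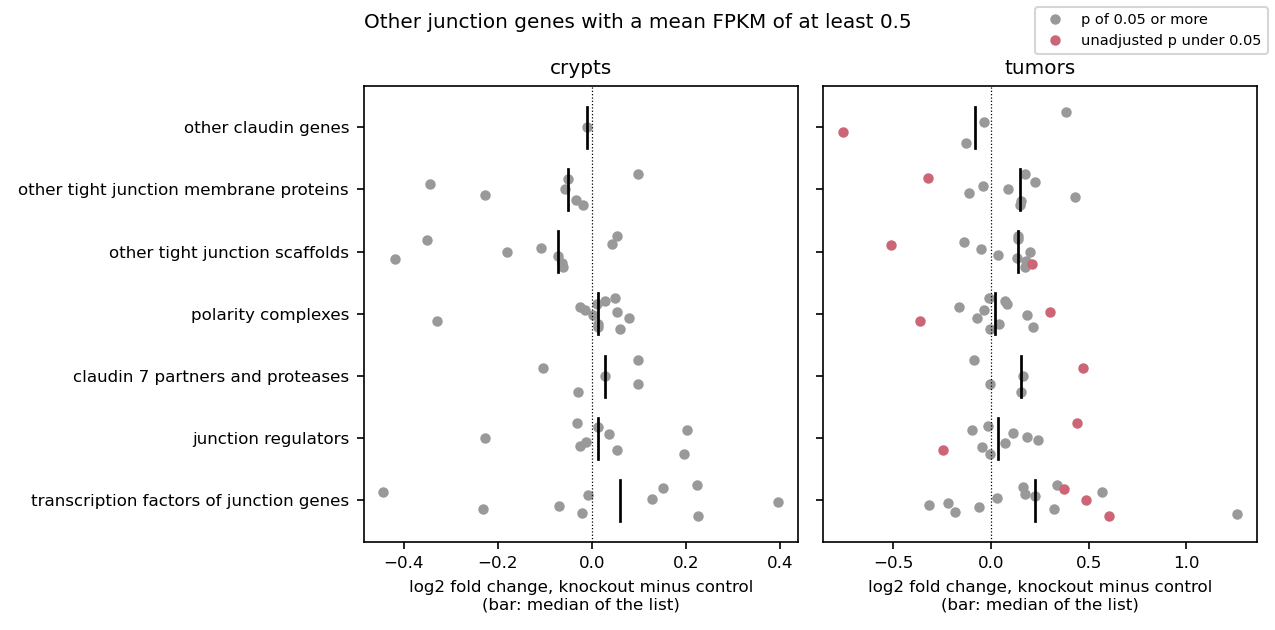
Log2 fold change (knockout minus control) of the tested genes of 7 further junction lists in crypts (left) and tumors (right), each point a gene and each bar the median of its list. Red points have an unadjusted p under 0.05 in limma: 0 in crypts, and in tumors among others *Cldn6* at -0.76 and *Amot* at -0.51.

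The genes whose pattern was most like that of *Cldn15*, the member with the smallest p in both tissues, were *Dnm1*, *Ttyh2* and *Coro2a*. Over the 12 libraries, with the mean of each table subtracted, Pearson's r was 0.935, 0.932 and 0.916 and Spearman's rho 0.860, 0.818 and 0.874, the highest r of 13369 genes compared. Without the 2 libraries farthest from the median of *Cldn15*, r was 0.824, 0.802 and 0.853. Within crypts alone r was 0.935, 0.870 and 0.680, and within tumors 0.949, 0.946 and 0.957. These correlations are a description, since the libraries share genotype groups, and the genes were picked as the highest of many.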

How the data were processed

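RNA of crypts and tumors was sequenced by the authors as paired-end reads; the submitters' processing notes name cutadapt, HISAT2, Cufflinks 2.2.1, DESeq2 and mm10. The authors deposited FPKM per gene and library in 1 table per tissue, with replicates not pooled; strand use and annotation are not given in the sources used here. FPKM times gene length fell on whole fragments for at least 99.958% of non-zero values per library (tolerance 0.02). log2(FPKM + 0.5), which understates differences of low genes, was compared with limma 3.58.1 (R 4.3.3) with a variance trend where a gene averaged 0.5 or more in a tissue, with Benjamini-Hochberg adjustment over all such genes at 0.05, and single values by exact two-sided permutation (smallest p 0.1). The procedure was also run on simulated data, and no result of that run is reported or used here. The members and lists were chosen with earlier results of these data known. Named were the 10 members, *Ctnnb1*, other claudins averaging at least 1 in either table, up to 4 genes per tissue with the smallest p of each other list but the marker lists, and the 3 genes most correlated with the member of smallest p; marker lists were given by counts, sums and their most abundant gene. After the values were seen, 2 genes were taken out of the junction lists and are not reported here. Sequences are from RefSeq GRCm38.p6, and gene spans equal those of GENCODE M21. *Igsf5* is listed under 2 IDs, of which the more abundant was taken. Alternatives were other pseudocounts, filters, scalings and tests, limma-voom on the recovered fragments, the replicate number as a block and each library left out; leaving out wild-type crypt replicates 1 and 2 was added after seeing the data.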

Additional observations from a re-analysis of the deposited data

Results flagged for a closer look

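*Esam*, the gene of an endothelial junction molecule and a marker of endothelium here, differed in opposite directions in the tissues. Every knockout library was below the wild-type ones in crypts, at 1.65, 1.42 and 1.69 against 1.85, 1.73 and 1.94 (log2 fold change -0.17, adjusted p = 0.907 from limma). In tumors every knockout library was above the *Apc*Min/+ ones, at 8.97, 9.09 and 11.1 against 6.66, 6.76 and 4.66 (log2 fold change 0.66, adjusted p = 0.269 from limma). Without overlap, 5.15% of all tested genes were lower in crypts and 11.4% higher in tumors. The 6 endothelial markers, *Esam* included, had a median log2 fold change of 0.0752 in tumors, with 5 higher and 1 lower, and the 2 tested in crypts were lower. The rest of the list was below the filter in crypts, and the cells that *Esam* came from there were not tested. The difference between the tissues was not tested.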

How the results depend on the processing

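No member had an adjusted p under 0.05 in limma under any alternative run. Counts of crypt members with an unadjusted p under 0.05 went from 0 to 1 after rescaling to the same sum and to between 0 and 1 with each library left out (1 without wild-type replicate 3), and genes with an adjusted p under 0.05 to between 0 and 3 (3 without wild-type replicate 3). Crypt members that did not overlap went from 3 to 1 after rescaling, to 0 relative to the epithelial markers and to 5 without wild-type replicates 1 and 2, where 35.4% of all tested genes were higher and 29.2% lower without overlap. In tumors the 2 members with an unadjusted p under 0.05 became 1 with no filter, 0 after rescaling, 1 with the replicate block and between 0 and 1 with each library left out. They stayed 2 after quantile normalization but were *Cldn15* (0.918) and, lower, *Cldn23* (-0.243), with *Cldn7* at a log2 fold change of 0.0662. Relative to the epithelial markers they were *Tjp1* (-0.400) and *Cldn23* (-0.432), both lower, and no longer *Cldn15* (0.633) and *Cldn7* (-0.00378), under a scaling whose median over all tested genes was -0.279. In tumors limma without a trend gave 1 gene with an adjusted p under 0.05. The cause of these differences was not tested.

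Log2 fold changes that reversed in crypts were those of *Cldn7* (-0.0197) and *Ocln* (-0.0125) after quantile normalization, *Cldn7* (-0.0251) and *Cldn8* (-0.00945) relative to the epithelial markers, and *Cldn2* (0.00844), *Cldn7* (-0.0246) and *Cldn8* (-0.42) without wild-type replicates 1 and 2, which was chosen after seeing the data. In tumors these were *Cldn4* (-0.0841) and *Cldn8* (-0.0726) after rescaling, *Cldn3* (-0.00782) and *Cldn4* (-0.15) after quantile normalization, and *Cldn2* (-0.0719), *Cldn3* (-0.12), *Cldn4* (-0.26), *Cldn7* (-0.00378) and *Cldn8* (-0.25) relative to the epithelial markers. With each library left out, the range crossed 0 for *Cldn7* (-0.0410 to 0.0636) and *Cldn8* (-0.19 to 0.27) in crypts and for *Cldn4* (-0.0695 to 0.125), *Cldn8* (-0.10 to 0.13) and *Ocln* (-0.15 to 0.0434) in tumors. The log2 fold change of *Cldn15* lay between 0.12 and 0.45 over the alternatives in crypts and between 0.58 and 1.16 in tumors. Its groups did not overlap in either tissue, so leaving out libraries could not reverse its direction, and only another scaling could.

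How genes with a small unadjusted p (under 0.05) divided into higher and lower differed between scalings. In crypts 494 were higher and 335 lower, but 734 and 159 after rescaling and 220 and 419 relative to the epithelial markers. In tumors 1417 were higher and 1004 lower, but 731 and 1785 after rescaling, 1116 and 1282 after quantile normalization, and 192 and 5072 relative to the epithelial markers. Replicate numbers did not pair the libraries, as deviations of same-numbered libraries correlated between -0.12 and 0.04 in crypts and between -0.09 and 0.05 in tumors and only tumor replicate 3 correlated best with its own number. With 1 to 12 fragments per crypt library, *Cldn1* was below the filter there and was not tested.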
